A study of Solanum lycopersicum with 18 samples.

Results

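Fruit of Vesuviano (RSV) and of Heinz (H) grown in the same field locality, Sarno, differed in the level of 1288 of 14483 genes tested, 8.89% of them. These fruit gave 6 of the 18 RNA-seq libraries of the series, 3 of RSV and 3 of H, all from red ripe fruit of tomato (Solanum lycopersicum) grown in the field. RSV is a small-fruited traditional tomato of the Vesuvius area whose ripe fruit can be stored, and H is the processing variety whose genome is the tomato reference. The other 12 libraries are of both varieties at Acerra, a second locality in the same region, and of the local variety San Marzano (SM) at both sites. They are used here only beside the Sarno values. The 6 groups have 3 libraries each. Plants stood in plots within blocks, fruit of a variety were pooled per plot, and the chopped material was divided into aliquots. The sources used here do not say if a group's 3 libraries represent different plots or aliquots of the same pool, so that SDs and p-values measure only the spread between these libraries, which may be technical.

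Ripening of tomato fruit is driven by the hormone ethylene, which is made from 1-aminocyclopropane-1-carboxylate (ACC) by ACC synthases and ACC oxidases and acts through ethylene responsive factors (ERF). Softening comes with changes to the cell wall, where xyloglucan endotransglucosylase/hydrolases (XTH) cut and rejoin the xyloglucan chains that tie cellulose fibres together. Texture, storage life and flavour of the ripe fruit depend on these enzymes and on the metabolism of sugars, amino acids, carotenoids and phenylpropanoids.

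Levels are FPKM (fragments scaled by transcript length and by the number of mapped fragments), as the authors estimated them for each locus. RSV reads had been aligned to the RSV assembly and H reads to the reference genome, with 1 run of the quantification per variety. A gene was compared where 1 Solyc identifier alone named a locus once in each table, which held for 30169 genes, and 14483 of them averaged at least 0.5 FPKM over the 6 libraries. Differences are on the log2(FPKM + 0.5) scale, RSV minus H, so that those of low genes are understated. The test was limma, two-sided, with Benjamini-Hochberg adjustment over the 14483 genes and a threshold of 0.05 on the adjusted p. The variety, the assembly and the run cannot be told apart in this comparison.

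Between 17460 and 18554 of the matched genes were above 0 in each of the 6 libraries. RSV replicates 1 and 2 correlated at 0.990 over the genes tested, and RSV replicate 3 correlated at 0.952 and 0.956 with them. The H replicates correlated at 0.928 to 0.967 with each other, and libraries of different varieties at 0.887 to 0.916. RSV replicate 3 lay more than 1 log2 unit from the median of its group for 1169 genes, against 90 and 47 for RSV replicates 1 and 2. H replicate 1 did so for 957 genes, against 273 and 496 for H replicates 2 and 3. In RSV replicate 3 a single locus, not among the matched genes, held 30.3% of the summed FPKM of all loci. Above 200 FPKM, the ratio between RSV replicates 1 and 2 spread by 0.144 log2 units (SD), close to the 0.143 to 0.215 among the RSV libraries of Acerra. The other RSV pairs of Sarno spread by 0.386 and 0.364, and the H pairs of Sarno by 0.333 to 0.549. RSV replicates 1 and 2 were thus the closest pair of Sarno, and both were kept as separate samples.

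Of the 1288 genes past the threshold, 695 were higher in RSV, 4.8% of those tested, and 593 were lower, 4.09%. The median absolute difference among them was 1.27 log2 units, against 0.303 over all genes tested. Differences of at least 1 log2 unit were reached by 431 of the higher and 434 of the lower genes, and differences of at least 3 by 82 and 86. All genes tested had a median difference of 0.10 log2 units. When the libraries were rescaled by their median ratio, this median was 0.0025 and 1238 genes passed, 521 higher and 717 lower, so that the share of higher genes among them was 42.1%, against 54% without rescaling. Both scalings called 1114 genes, all in the same direction, and the 174 genes lost on rescaling were all among the higher ones. With RSV replicate 3 and H replicate 1 both left out, a choice made after the data were seen, 2409 of 14308 genes passed (16.8%), 1510 higher and 899 lower, and these included 1047 of the 1288, each with its direction kept. Leaving out libraries because they stand apart can by itself raise such a count. Omission of 1 library at a time gave between 355 and 1678 genes, the lowest counts without RSV replicate 2 (355), RSV replicate 1 (430) and H replicate 2 (639).

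**Figure D1:**
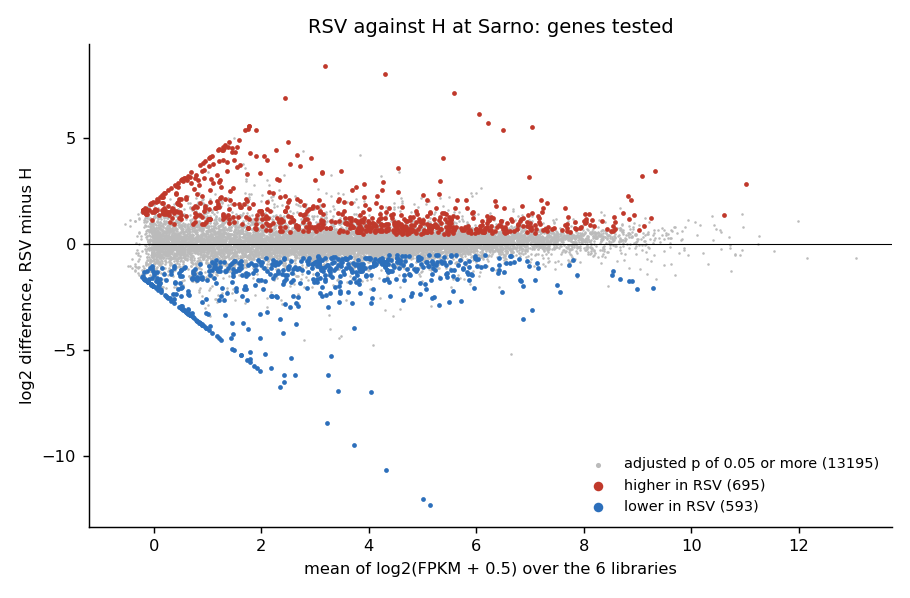
Log2 difference between RSV and H at Sarno (vertical axis) against the mean level over the 6 libraries (horizontal axis, log2 of FPKM + 0.5), 1 point per gene. The 695 higher genes (red) and 593 lower genes (blue) lie at all levels, and the straight edges at low level are genes listed at 0 or close to 0 in one variety.

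Genes listed at 0 in all libraries of one variety are treated separately. Among the others that averaged 1 FPKM or more and did not overlap, the one that exceeded H the most, Solyc09g055470 (chr9:36732668-36733088 on the H reference as listed), had 413, 311 and 247 FPKM in RSV, against 0.149, 0.763 and 1.75 FPKM in H. The difference was 8.01 log2 units (SE 0.45, limma adjusted p = 0.000255). SM fruit at Sarno, which were no part of this test, had 272, 282 and 230 FPKM for it, close to RSV. No annotation of this identifier was used here, and the same holds for the other genes below that are given by identifier alone.

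Solyc06g076580 had 671, 487 and 551 FPKM in RSV, against 6.76, 2.60 and 2.45 FPKM in H (7.13 log2 units, SE 0.36). Solyc06g076510 had 572, 557 and 522 FPKM in RSV, against 7.94, 8.08 and 6.50 FPKM in H (6.11, SE 0.13). The RSV locus of Solyc06g076580 was listed at 0.0594 of the length of the H locus. The H table lists both genes in the same interval, chr6:43933251-43954838, so that reads of one could have been counted for the other. Solyc07g054810 had 860, 707 and 255 FPKM in RSV, against 9.54, 8.42 and 11.9 FPKM in H. Its lowest RSV library, replicate 3, still stood far above all 3 of H.

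Solyc10g050990 had 959, 1124 and 645 FPKM in RSV, against 17.9, 39.0 and 9.45 FPKM in H, and its RSV locus was listed as 40.7 times as long as its H locus. FPKM depends on that length. Solyc01g081250 had 595, 527 and 630 FPKM in RSV, against 9.06, 38.5 and 6.93 FPKM in H. In SM at Sarno Solyc01g081250 averaged only 0.703 FPKM, so that among the 3 varieties RSV alone was high. The other 4 of the 10 largest rises among genes above 0 in both varieties, Solyc01g106620, Solyc04g005310, Solyc01g112380 and Solyc05g018120, were between 11.2 and 31.1 FPKM in RSV and at most 0.750 FPKM in H. The listed RSV locus was 10.5 times as long as the H locus for Solyc04g005310 and 0.426 times as long for Solyc01g106620. All 10 kept their call under the omission of each library.

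Of the genes above 0 in both varieties that fell, Solyc06g083490 differed most, with 0.534, 0.832 and 1.82 FPKM in RSV, against 234, 338 and 77.9 FPKM in H (fell by 6.97 log2 units, SE 0.58, limma adjusted p = 0.0013). Solyc11g028100 (chr11:16766983-16770022) had 0.0367, 0.0925 and 0.0495 FPKM in RSV, against 49.3, 52.5 and 49.99 FPKM in H. Its H libraries spread by only 1.68 FPKM (SD, n = 3) and its difference of -6.51 log2 units had an SE of 0.13. SM at Sarno had 44.5, 50.9 and 57.3 FPKM of Solyc11g028100, as H did, so that RSV alone was low.

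Solyc02g077930 had 3.31, 0 and 0 FPKM in RSV, against 125, 50.6 and 257 FPKM in H. Solyc00g009760, on sequence not placed on a chromosome, had 0.206, 0 and 0.223 FPKM in RSV, against 65.4, 35.2 and 40.6 FPKM in H. Solyc10g084360 had 5.21, 0 and 0 FPKM in RSV, against 65.4, 48.1 and 163 FPKM in H, and its call (limma adjusted p = 0.0166) ended without RSV replicate 2 (0.0749) and without H replicate 3 (0.0526). Solyc01g109180, Solyc11g045440, Solyc08g061330, Solyc02g089500 and Solyc05g009730 were at most 1.503 FPKM in RSV and at least 20.1 FPKM in H. The listed RSV locus was 30.1 times as long as the H locus for Solyc11g045440 and 5.69 times as long for Solyc06g083490. Absence of overlap between the varieties was a condition for the choice of these 10. Of the 10, 9 kept their call under each omission, all but Solyc10g084360.

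**Figure D2:**
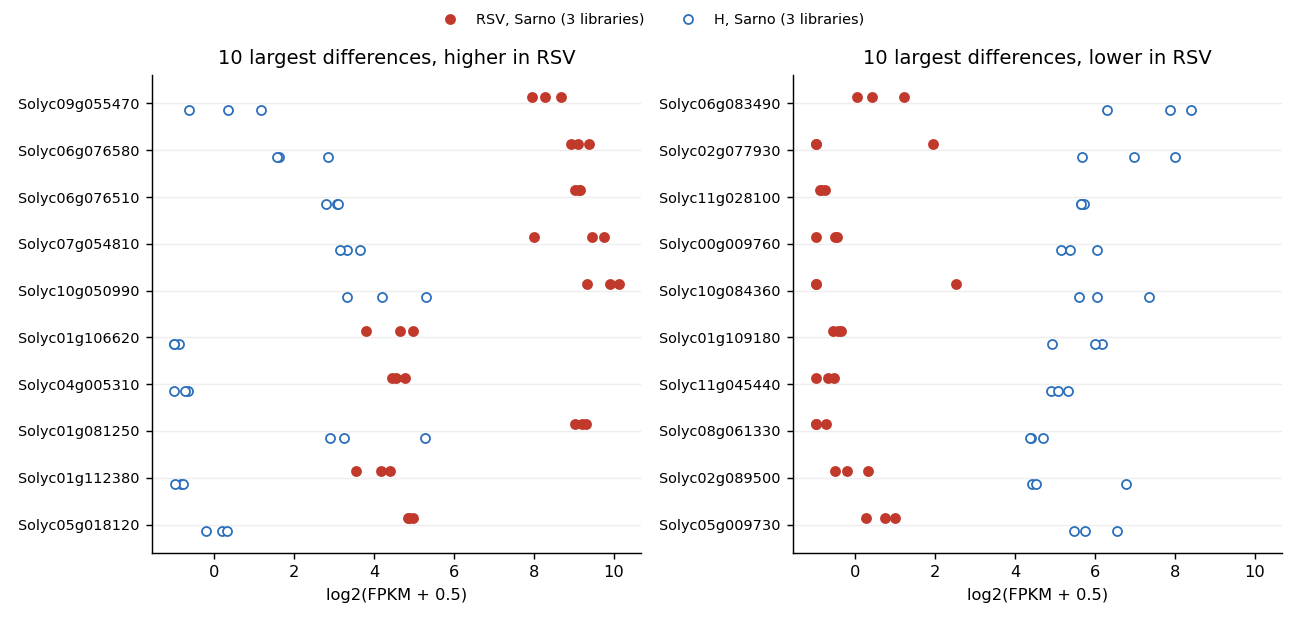
Level in each of the 6 Sarno libraries (log2 of FPKM + 0.5) of the 10 genes with the largest rise (left) and the 10 with the largest fall (right) in RSV relative to H, above 0 in at least 1 library of each variety. Red points are RSV and open blue points H, 3 libraries each. The genes were chosen among those without overlap between the varieties.

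SM at Sarno could be set beside both varieties for 162 of the 168 genes that passed with at least 3 log2 units. The mean log2 level of SM was nearer to RSV in 110 and nearer to H in 52. Of the 78 higher ones, SM was nearer to RSV in 47, and of the 84 lower ones in 63. SM, like RSV, had its own assembly and run.

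Among genes above 0 in both varieties, the most abundant past the threshold had smaller differences. Solyc05g053070 had 5558, 4962 and 6229 FPKM in RSV, against 602, 423 and 1826 FPKM in H (2.84 log2 units, SE 0.55, limma adjusted p = 0.0282). The call ended without any 1 of RSV replicates 1 to 3 or H replicates 1 and 2 (limma adjusted p 0.0518 to 0.102) and held only without H replicate 3. The RSV locus of Solyc05g053070 was listed at 0.478 of the length of its H locus. Solyc02g090120 had 2645, 2314 and 1530 FPKM in RSV, against 156, 203 and 240 FPKM in H (10.8-fold, 3.42 log2 units, SE 0.27), and kept its call under each omission. The RSV locus that carries Solyc02g090120 was listed as 160 times as long as the H locus, which spans chr2:46322353-46322614.

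Solyc10g007650 had 2069, 1765 and 1219 FPKM in RSV, against 187, 169 and 186 FPKM in H (9.33-fold, 3.19 log2 units, SE 0.23). At Acerra the same gene had 949, 1208 and 1241 FPKM in RSV, against 242, 228 and 177 FPKM in H. Its RSV locus was listed as 2.75 times as long as its H locus. Solyc03g083620 had 2986, 2476 and 2124 FPKM in RSV, against 930, 779 and 1266 FPKM in H (1.37, SE 0.27, limma adjusted p = 0.0316), and lost its call without RSV replicate 1 (0.108), RSV replicate 2 (0.122), H replicate 1 (0.0952) or H replicate 2 (0.106). Solyc04g017690 had 1077, 902 and 841 FPKM in RSV, against 358, 492 and 350 FPKM in H (1.24, SE 0.21, limma adjusted p = 0.0173). It lost its call without RSV replicate 1 (0.0717), RSV replicate 2 (0.0808) or H replicate 1 (0.0589).

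Of the abundant genes that were lower, Solyc11g063500 had 204, 181 and 391 FPKM in RSV, against 1285, 787 and 1168 FPKM in H (-2.12, SE 0.35, limma adjusted p = 0.0165). Its call ended without RSV replicate 1 (0.0779), RSV replicate 2 (0.0773) or H replicate 3 (0.0511). Solyc07g064170 had 270, 219 and 264 FPKM in RSV, against 718, 1372 and 586 FPKM in H (-1.73, SE 0.33, limma adjusted p = 0.0267), a call that ended without RSV replicate 1 (0.0935) or 2 (0.118). Solyc11g020330 had 422, 391 and 171 FPKM in RSV, against 1508, 1639 and 822 FPKM in H (-2.05, SE 0.43, limma adjusted p = 0.0372), and lost its call without RSV replicate 1 (0.0813) or 2 (0.101) or H replicate 1 (0.0866) or 2 (0.114). The listed RSV locus was 3.89 times as long as the H locus for Solyc11g063500 and 3.30 times as long for Solyc11g020330, and FPKM depends on that length.

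A set of genes was listed at 0 in all 3 libraries of one variety. It comprised 91 of the tested genes at 0 in RSV, 78 of them past the threshold, and 45 at 0 in H, 36 of them past it. Of all genes tested 8.89% passed. A gene at 0 in one variety reached the level tested only through the other, and its zeros have no spread. The high shares past the threshold thus follow largely from how these genes were chosen. At Acerra 76 of the 91 were again at 0 in all 3 RSV libraries and 35 of the 45 in all 3 H libraries. SM at Sarno was also at 0 in 58 of the 87 genes at 0 in RSV that were matched in SM, and in 12 of 43 of those at 0 in H. The locus had a similar length in both tables, within 10%, for 47 of the 91 and 15 of the 45. Most of these genes were low in the other variety, with a median of 4.83 FPKM in H for those at 0 in RSV and of 2.75 FPKM in RSV for those at 0 in H.

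A few were abundant. Solyc06g059740 (chr6:33996393-33998846) was listed at 0 in the 3 RSV libraries, against 2207, 4125 and 1702 FPKM in H. Solyc03g083910 was listed at 0 in RSV, against 1763, 2303 and 2190 FPKM in H. Solyc01g095330 was listed at 0 in RSV, against 622, 852 and 970 FPKM in H. All 3 were also listed at 0 in the SM libraries of Sarno, yet at Acerra, in the same RSV assembly and run, their RSV and H libraries overlapped at like levels. A listed 0 can also be an estimate that failed in the quantification, which these files cannot tell apart from a missing transcript, so that the falls of these 3 genes, the widest at Sarno, are not established as differences in expression.

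Of the other genes at 0 in RSV, Solyc00g011160 had 529, 335 and 237 FPKM in H and was again at 0 in RSV at Acerra, where H had 679, 713 and 736 FPKM. Solyc04g071110 had 1138, 87.8 and 50.8 FPKM in H, mostly in H replicate 1. Among genes at 0 in H, Solyc03g058990 had 80.3, 54.4 and 44.8 FPKM in RSV, Solyc09g008180 had 18.3, 15.4 and 43.8 FPKM, and Solyc06g009890 had 27.9, 29.5 and 14.3 FPKM. Solyc00g008570 had 50.8, 46.7 and 1933 FPKM in RSV, so that its mean rests on replicate 3, and its call (limma adjusted p = 0.017) ended without H replicate 2 (0.0637) or H replicate 3 (0.0532). Solyc07g052250 had 57.0, 55.5 and 0.762 FPKM in RSV and did not pass (limma adjusted p = 0.0835), but passed without RSV replicate 3 (9.73e-05).

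The listed length of the locus differed between the tables by more than 10% for 2050 genes. Of these 313 passed (15.3%), against 975 of 12433 genes of similar locus length (7.84%). With RSV replicate 3 and H replicate 1 left out these shares were 23.1% and 15.8%. The median absolute difference of the genes that passed was 1.63 and 1.21 log2 units. When only genes of similar locus length were fitted, 881 of 12433 passed.

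The share of genes that passed was lowest on chromosome 1, with 150 of 1910 genes (7.85%), and highest on chromosome 11, with 101 of 928 genes (10.9%), while 16 of 115 genes on unplaced sequence passed (13.9%). Chromosomes 10 and 12 stood at 10.4% and 10.5%. Neighbours in the order of identifiers passed in the same direction in 79 runs of at least 2 tested genes, 8 of them of at least 3, which together hold 167 of the 1288 genes (13%). The share for genes in random order was not computed, so that 13% does not show clustering. Some neighbours also share a listed interval, as Solyc02g086960 and Solyc02g086970 do (chr2:44111326-44128131). The runs described next were chosen after their values were seen.

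The longest run, of 4 genes, was on chromosome 1. Solyc01g015060, Solyc01g015260, Solyc01g015300 and Solyc01g016460 were all listed at 0 in the 3 RSV libraries. Solyc01g015300 had the highest level of them, with 14.3, 15.5 and 14.4 FPKM in H. The listed length of the RSV locus was between 0.033 and 0.31 of that of the H locus in the 4 genes. All 4 kept their call under each omission.

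In a run on chromosome 8, Solyc08g066910 had 5.48, 13.9 and 7.99 FPKM in RSV, against 0, 0.0176 and 0 FPKM in H, and kept its call under each omission. Its RSV locus was listed as 2.37 times as long as its H locus.

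The study's tables and text describe 130 genes by name, most of them picked for their response to locality in these same libraries, so that the lists are not independent evidence. They were grouped here into 17 lists by function, of which 107 genes were tested. Of the 107, 8 passed the threshold (7.48%, against 8.89% of all genes), 6 higher and 2 lower in RSV. Their median difference was 0.20 log2 units, against 0.10 over all genes. The varieties did not overlap in 27 of the 107, against 33.8% of all genes tested. An unadjusted limma p under 0.05 was found for 31 of the 107, against 3955 of all 14483 genes tested. The unadjusted counts of single lists below are to be read beside this.

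The libraries that stand apart changed the counts of these lists. RSV replicate 3 was the lowest RSV library for 70 of the 107 genes, and H replicate 1 was the highest of the 6 libraries for 31. Without these 2 libraries, 34 of 106 list genes were higher and 19 lower (50%), against 16.8% of all genes (10.6% higher and 6.28% lower). They were left out because they stand apart, which by itself can narrow the spread within groups and raise the counts. Where RSV replicate 3 is the lowest of its group or H replicate 1 the highest, the omission also raises the difference by construction. The counts without them, here and below, are thus no independent evidence. The part of these libraries in the list counts below was not tested further.

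Among the 9 XTH, 1 passed and the median difference was 0.64. Without RSV replicate 3 and H replicate 1, 2 were higher and 1 lower. Solyc07g055990, described as XTH7, had 30.2, 31.3 and 23.9 FPKM in RSV, against 10.3, 5.56 and 7.36 FPKM in H (3.68-fold, 1.85 log2 units, SE 0.23, limma adjusted p = 0.00762), a call kept under each omission. At Acerra its levels overlapped, with 34.3, 34.7 and 21.2 FPKM in RSV, against 22.6, 19.8 and 25.7 FPKM in H.

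The 4 XTH genes that lie together on chromosome 3 did not pass. Solyc03g093120 had 56.6, 55.9 and 58.3 FPKM in RSV, against 11.7, 80.7 and 35.6 FPKM in H, and Solyc03g093130 had 67.1, 62.9 and 66.3 FPKM in RSV, against 16.9, 86.8 and 48.9 FPKM in H. In both genes the 3 RSV libraries were nearly equal and H replicate 1 was the lowest of the 6, with H replicate 2 the highest. Solyc03g093080 and Solyc03g093110 also had their lowest value in H replicate 1. The study describes these 4 genes as copies of high similarity, so that reads could have been divided among them and their single levels are uncertain. On chromosome 12, Solyc12g011030 had 11.4, 10.7 and 4.72 FPKM in RSV, against 18.8, 15.5 and 21.8 FPKM in H (-1.10, SE 0.34, limma adjusted p = 0.0956).

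None of the 15 other cell wall genes passed in limma. Of them 6 had an unadjusted p under 0.05, against 3955 of all 14483 genes tested. The varieties did not overlap in 5 of the 15, against 33.8% of all genes tested. Endoglucanase Solyc09g010210, which cuts cellulose chains, had 156, 141 and 265 FPKM in RSV, against 214, 260 and 183 FPKM in H. Beta-galactosidase Solyc12g008840, which removes galactose from wall polymers, had 44.5, 43.6 and 37.7 FPKM in RSV, against 63.2, 62.3 and 45.1 FPKM in H. Beta-xylosidase Solyc11g044910 had 6.14, 6.55 and 2.20 FPKM in RSV, against 19.4, 10.4 and 14.2 FPKM in H (-1.55, SE 0.42, limma adjusted p = 0.0704), and at Acerra, where it passed, it differed by -1.48 (limma adjusted p = 0.0011). Without RSV replicate 3 and H replicate 1, 4 of the 15 were higher and 1 lower.

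Of 7 ethylene synthesis genes, 1 passed, while 2 were higher and 1 lower without RSV replicate 3 and H replicate 1. The ACC synthase Solyc08g081540, described as ACS6, had 0.0899, 0.0631 and 0.130 FPKM in RSV, against 0.778, 1.11 and 0.936 FPKM in H (-1.27, SE 0.23, limma adjusted p = 0.0231). It was low in both varieties and reached the level tested only through H. Only 3 of the omissions left it at that level, and its call held in 1 of them. The call ended without RSV replicate 1 (0.1005) or RSV replicate 2 (0.115). At Acerra it was again lower, with 0.666, 0.399 and 0.249 FPKM in RSV, against 2.41, 4.09 and 3.49 FPKM in H. The neighbouring Solyc08g081550, also described as ACS6, had 10.8, 10.8 and 14.8 FPKM in RSV, against 13.9, 20.1 and 12.7 FPKM in H, and did not pass.

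The ACC synthase ACS2 (Solyc01g095080), the main one of ripening fruit, had 85.7, 83.1 and 532 FPKM in RSV, against 246, 84.3 and 67.7 FPKM in H. Its highest values lay in RSV replicate 3 and H replicate 1, the libraries that stand apart, and the other 4 libraries were between 67.7 and 85.7 FPKM. ACS2, endoglucanase and beta-galactosidase, genes of ripening fruit, were thus present in all 6 libraries. Their presence alone does not tell the stage of ripening of a library. Of the genes of green tissue, the chlorophyll a-b binding protein Solyc03g115900 had 8.90, 8.04 and 0.785 FPKM in RSV, against 3.91, 0.270 and 1.13 FPKM in H, and Solyc05g056050 was between 0.144 and 1.12 FPKM in all 6 libraries. In the same list of 4 photosynthesis and plastid genes, Solyc06g060340 and Solyc02g062340 were higher in H. Solyc06g060340 had 21.7 to 85.3 FPKM in H, against 1.26 to 7.65 FPKM in RSV. Solyc02g062340 had 6.35 to 36.2 FPKM in H, against 2.33 to 4.38 FPKM in RSV.

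Of the ERF, which carry the ethylene signal to their target genes, 1 of 3 tested passed, while 1 was higher and 1 lower without RSV replicate 3 and H replicate 1. Solyc09g075420, described as ERF2b, had 308, 313 and 311 FPKM in RSV, against 62.7, 116 and 74.0 FPKM in H (3.68-fold by the means, 1.92 log2 units, SE 0.23, limma adjusted p = 0.00658). The RSV libraries spread by 2.60 FPKM (SD, n = 3) around their mean of 310 FPKM, and the call was kept under each omission. At Acerra it had 667, 573 and 586 FPKM in RSV, against 258, 346 and 513 FPKM in H, without passing (0.0557). SM at Sarno averaged 316 FPKM, at the level of RSV.

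No WRKY factor of 5 and no MYB factor of 5 passed in limma (0 and 1 had an unadjusted p under 0.05), and without RSV replicate 3 and H replicate 1 the WRKY had 1 lower and the MYB 3 higher and 1 lower. Of 13 other transcription factors 2 were higher, and without these 2 libraries 6 were higher and 1 lower. Solyc02g090310, a Dof zinc finger protein, had 29.7, 28.9 and 38.2 FPKM in RSV, against 20.2, 12.9 and 16.7 FPKM in H (0.95, SE 0.20, limma adjusted p = 0.0365). Its call was lost on rescaling (0.0535) and without RSV replicate 1 (0.111), 2 (0.109) or 3 (0.0613) or H replicate 2 (0.0942) or 3 (0.0756). Solyc02g085630, a homeobox-leucine zipper-like protein, had 3.67, 3.67 and 3.61 FPKM in RSV, against 1.66, 0.177 and 0.754 FPKM in H (1.76, SE 0.41, limma adjusted p = 0.0492), and was lost on rescaling (0.0597) and without any 1 library but H replicate 1 (0.0717 to 0.167).

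Receptor kinases and calcium signalling genes, which perceive and relay signals at the cell surface, had a median difference of -0.69 log2 units over 8 genes and none passed in limma (2 had an unadjusted p under 0.05). Calmodulin-like protein Solyc02g094000 had 89.7, 115 and 86.9 FPKM in RSV, against 15.3, 199 and 242 FPKM in H. Calmodulin-binding protein Solyc03g119250 had 11.7, 11.1 and 7.54 FPKM in RSV, against 4.73, 37.2 and 38.2 FPKM in H. In both, H replicate 1 was the lowest and the remaining H libraries were the highest of the 6. Without RSV replicate 3 and H replicate 1, 6 of the 8 were lower, against 6.28% of all genes, and at Acerra 5 of 10 were lower, against 16.8% of all genes.

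Arginine decarboxylase makes agmatine from arginine, an early step of polyamine synthesis, and the study designed RT-qPCR primers for 2 genes of this enzyme. Solyc01g110440 had 201, 91.1 and 27.6 FPKM in RSV, against 3.51, 5.95 and 11.6 FPKM in H (3.56 log2 units, SE 0.75, limma adjusted p = 0.037). The 3 RSV libraries spread widely but the lowest stood above all of H, and the call ended without RSV replicate 1 (0.0993) or 2 (0.139) or H replicate 1 (0.0821), 2 (0.1105) or 3 (0.0561). At Acerra, in other libraries, it had 327, 81.1 and 107 FPKM in RSV, against 7.26, 10.8 and 11.4 FPKM in H (3.81, limma adjusted p = 0.00259). Solyc10g054440 had 60.0, 59.2 and 48.9 FPKM in RSV, against 57.6, 28.7 and 89.2 FPKM in H, and did not differ beyond that spread (0.08, SE 0.39, limma adjusted p = 0.918). The primer pairs, shown because these 2 genes of the same enzyme gave different results, are written 5′ to 3′ as the study lists them:
Solyc01g110440 forward: cgctgcagtggatagcattt
Solyc01g110440 reverse: tccatcactgtcacacgtca
Solyc10g054440 forward: ttcccgattgttcccatcca
Solyc10g054440 reverse: ataggttatggagtccgccg

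In the rest of this list of 7 amino acid and amine genes none passed in limma, while without RSV replicate 3 and H replicate 1, 3 of the 7 were higher and 2 lower, Solyc08g068600 (limma adjusted p = 0.0277) and Solyc08g068680 (0.0103). The decarboxylase Solyc08g068600 had 2.37, 2.73 and 6.83 FPKM in RSV, against 12.7, 19.2 and 8.16 FPKM in H (-1.68, SE 0.44, limma adjusted p = 0.0679). Its neighbour Solyc08g068680 had 3.39, 3.70 and 7.80 FPKM in RSV, against 23.6, 9.51 and 8.59 FPKM in H. In both genes all RSV libraries were below all H libraries. At Acerra Solyc08g068600 differed by -1.04 and passed (limma adjusted p = 0.0143).

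**Figure D3:**
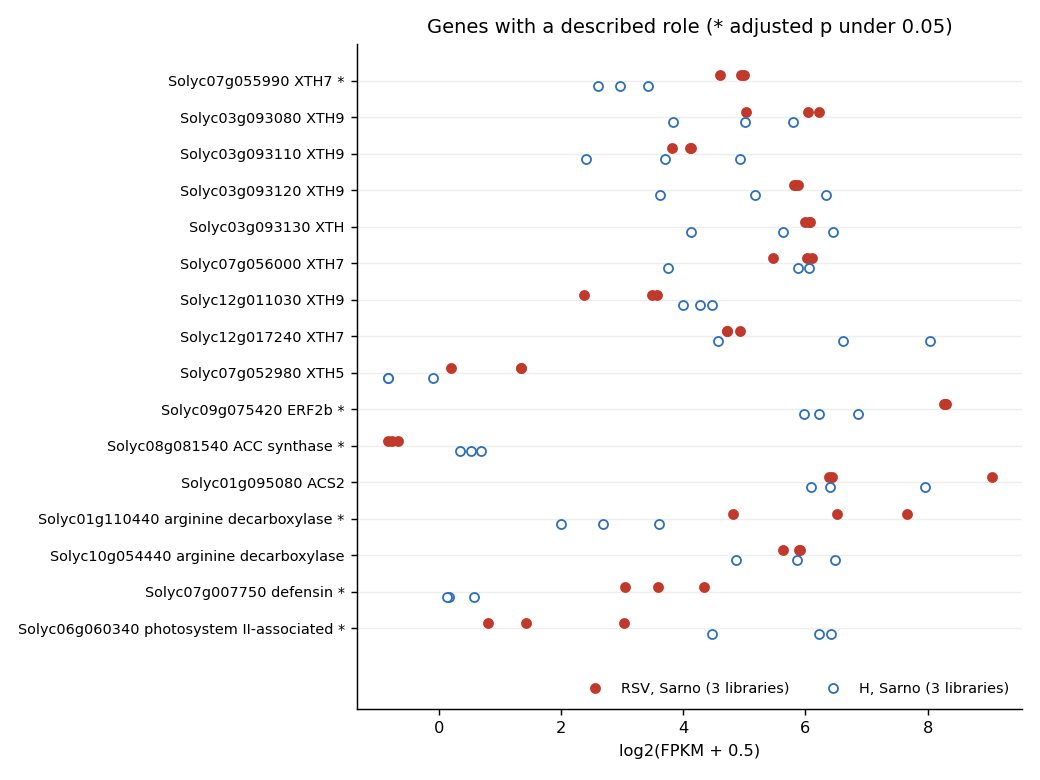
Level in each of the 6 Sarno libraries (log2 of FPKM + 0.5) of the 9 XTH genes and of 7 further genes described by the study. Red points are RSV and open blue points H, and an asterisk marks an adjusted p under 0.05. The 3 RSV libraries of ERF2b lie on one another near 310 FPKM, above the 62.7 to 116 FPKM of H, while most XTH overlap.

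Of 7 genes for chitinases, which break down chitin of fungal walls, a defensin and proteinases, 1 passed, while 3 were higher without RSV replicate 3 and H replicate 1. The defensin Solyc07g007750, a small antimicrobial protein, had 11.6, 7.76 and 19.8 FPKM in RSV, against 0.996, 0.628 and 0.594 FPKM in H (3.37, SE 0.34, limma adjusted p = 0.00329), and kept its call under each omission. Its RSV locus was listed as 37.1 times as long as its H locus, and at Acerra the varieties overlapped, with 21.0, 45.1 and 24.4 FPKM in RSV, against 14.0, 16.1 and 52.2 FPKM in H. The chitinase Solyc07g009530 had 2220, 1841 and 156 FPKM in RSV, against 2707, 115 and 166 FPKM in H. Both varieties had high and low libraries with nothing between 166 and 1841 FPKM, and RSV replicate 3 and H replicate 1 were each on the side opposite to the rest of their group.

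Of 4 photosynthesis and plastid genes, 1 passed, while 2 were higher and 1 lower without RSV replicate 3 and H replicate 1. The chloroplast photosystem II-associated protein Solyc06g060340 had 2.18, 1.26 and 7.65 FPKM in RSV, against 85.3, 21.7 and 74.3 FPKM in H (-3.95, SE 0.72, limma adjusted p = 0.0234). The call ended without RSV replicate 1 (0.0995) or 2 (0.0922) or H replicate 1 (0.0550) or 3 (0.0677). At Acerra both varieties were low, at 0.466 to 0.817 FPKM in RSV and 0.374 to 2.22 FPKM in H. SM at Sarno had 65.1, 33.2 and 71.4 FPKM, as H did. Fructose-bisphosphate aldolase Solyc02g062340 had 4.38, 3.50 and 2.33 FPKM in RSV, against 14.4, 6.35 and 36.2 FPKM in H (-2.03, SE 0.59, limma adjusted p = 0.0849).

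No gene of the remaining lists passed in limma. The 7 lipid genes, of which 2 had an unadjusted p under 0.05, had a median difference of 1.49 log2 units, with 6 of them positive, and 5 were higher and 1 lower without RSV replicate 3 and H replicate 1. The lipid-transfer protein Solyc01g081600 had 7.85, 6.94 and 2.22 FPKM in RSV, against 0.696, 0.241 and 1.65 FPKM in H (2.16, SE 0.56, limma adjusted p = 0.0637). The 5 cytochromes P450 (1 with an unadjusted p under 0.05) had a median of -2.05, and in each of them H replicate 1 was the highest of the 6 libraries. Without it and RSV replicate 3, 1 was higher and 1 lower. Cytochrome P450 Solyc01g109140 had 0.692, 0.754 and 0.783 FPKM in RSV, against 74.3, 5.01 and 1.03 FPKM in H.

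The 6 phenylpropanoid and lignin genes (1 with an unadjusted p under 0.05) had a median of -0.09, and without RSV replicate 3 and H replicate 1, 2 of 5 were higher. The peroxidase Solyc01g006300 had 0.183, 0.0384 and 0.0494 FPKM in RSV, against 54.1, 0.341 and 0.0269 FPKM in H, and the laccase Solyc04g072280 had 0.908, 0.989 and 0.399 FPKM in RSV, against 33.2, 0.911 and 0.109 FPKM in H. Both enzymes join lignin units, and only H replicate 1 held them at a high level. Beta-carotene hydroxylase Solyc03g007960, which turns beta-carotene into xanthophylls, had 60.2, 55.8 and 43.1 FPKM in RSV, against 23.5, 29.5 and 48.7 FPKM in H (0.69, SE 0.28, limma adjusted p = 0.176). None of 3 transporters and of 2 sugar phosphate and trehalose genes passed in limma, and 0 of either had an unadjusted p under 0.05. Without RSV replicate 3 and H replicate 1, 1 transporter was lower.

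The same contrast at Acerra, in 6 other libraries quantified in the same runs, called 3866 of 13992 genes (27.6%), 1520 higher and 2346 lower in RSV. Of the 1288 genes that passed at Sarno, 1243 were tested at Acerra, 1165 had the same sign there (93.7%, against 68.8% of all 13712 genes tested at both sites), and 839 passed in the same direction (67.5% of the 1243 and 21.7% of the 3866). Of the higher genes 381 of 671 passed at Acerra in the same direction, and of the lower genes 458 of 572. Where the difference at Sarno was at least 3 log2 units, this held for 139 of 160 genes. Without RSV replicate 3 and H replicate 1 of Sarno, 1125 of 2138 genes tested at both sites passed in the same direction at Acerra (52.6%). The assembly and run of each variety are shared by both sites.

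**Figure D4:**
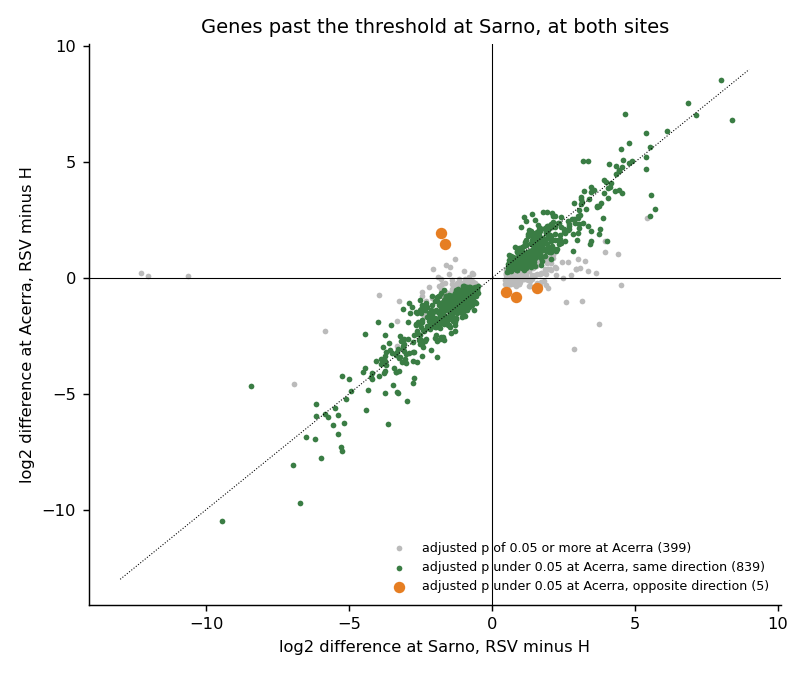
Log2 difference between RSV and H at Acerra (vertical axis) against that at Sarno (horizontal axis) for the 1243 genes that passed at Sarno and were tested at both sites. The dotted line marks equal differences. 839 genes (green) passed in the same direction at Acerra, 5 (orange) in the opposite one, and 3 genes on the far left have a fall of more than 10 at Sarno and a difference near 0 at Acerra.

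The difference between the sites was tested as an interaction over the 12 RSV and H libraries, and 15 of 14356 genes passed (0.104%), with 2427 at an unadjusted p under 0.05. Leaving out RSV replicate 3 of Sarno gave 137 genes, and H replicate 1 gave 81. The genes named from this test were chosen after their values were seen. The 3 genes with the widest gap at Sarno were among the 15, and their interaction rests on the same zeros, which may be failed estimates. Solyc06g059740 had 4372, 4818 and 4737 FPKM in RSV at Acerra, against 3768, 3706 and 4723 FPKM in H, and was listed at 0 in RSV only at Sarno (interaction -12.5 log2 units, limma adjusted p = 1.11e-08). Solyc03g083910 had 1582, 1125 and 1188 FPKM in RSV at Acerra, against 947, 1158 and 1563 FPKM in H. Solyc01g095330 had 871, 1063 and 1210 FPKM in RSV at Acerra, against 997, 1013 and 928 FPKM in H.

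Solyc11g011210 had 1054, 911 and 1007 FPKM in RSV at Sarno, against 221, 207 and 193 FPKM in H, and 461, 501 and 518 FPKM in RSV at Acerra, against 365, 437 and 317 FPKM in H (interaction 1.84, limma adjusted p = 0.00213). It was higher in RSV by 2.26 log2 units at Sarno and by 0.41 at Acerra. The matrix metalloproteinase Solyc05g006360, a protein-cutting enzyme below the level tested at Sarno, had 0.415, 0.326 and 0.449 FPKM in RSV there, against 0.0373, 0.0274 and 0 FPKM in H. At Acerra it had 2.45, 2.97 and 3.07 FPKM in RSV, against 0.114, 0.133 and 0.0756 FPKM in H. Its H values were below the 0.5 FPKM added before the logarithm at both sites, so that its interaction is set largely by RSV.

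Past the threshold at both sites in opposite directions were 5 genes. Solyc06g063060 had 24.4, 23.3 and 21.2 FPKM in RSV at Sarno, against 13.6, 12.8 and 11.3 FPKM in H, and 13.8, 12.8 and 10.3 FPKM in RSV at Acerra, against 20.0, 23.0 and 22.3 FPKM in H. The varieties thus exchanged their order without overlap at either site, but the call at Sarno ended without RSV replicate 1 (0.0633) or 2 (0.0736). Solyc11g071490 did likewise, with 159, 158 and 166 FPKM in RSV at Sarno, against 114, 106 and 122 FPKM in H, but its call at Sarno (limma adjusted p = 0.0472) was lost on rescaling (0.0807) and under the omission of any 1 library (0.0546 to 0.166).

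Solyc01g105410 was higher at Sarno (1.57, limma adjusted p = 0.0334) and lower at Acerra (-0.44, 0.0367), and the interaction did not pass (0.0781). Its call at Sarno ended without RSV replicate 1 (0.123) or 2 (0.134) or H replicate 2 (0.0999) or 3 (0.0777). Solyc02g014510 and Solyc10g044460 were lower at Sarno (-1.78 and -1.65) and higher at Acerra (1.95 and 1.49), with at most 1.51 FPKM in any Sarno library. Values this low may rest on few fragments, which were not counted here. The call at Sarno ended for Solyc02g014510 without RSV replicate 1 (0.0583) and for Solyc10g044460 without RSV replicate 2 (0.0662). Solyc10g044460 stayed at the level tested in only 4 of the omissions, and its call held in 3 of them.

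**Figure D5:**
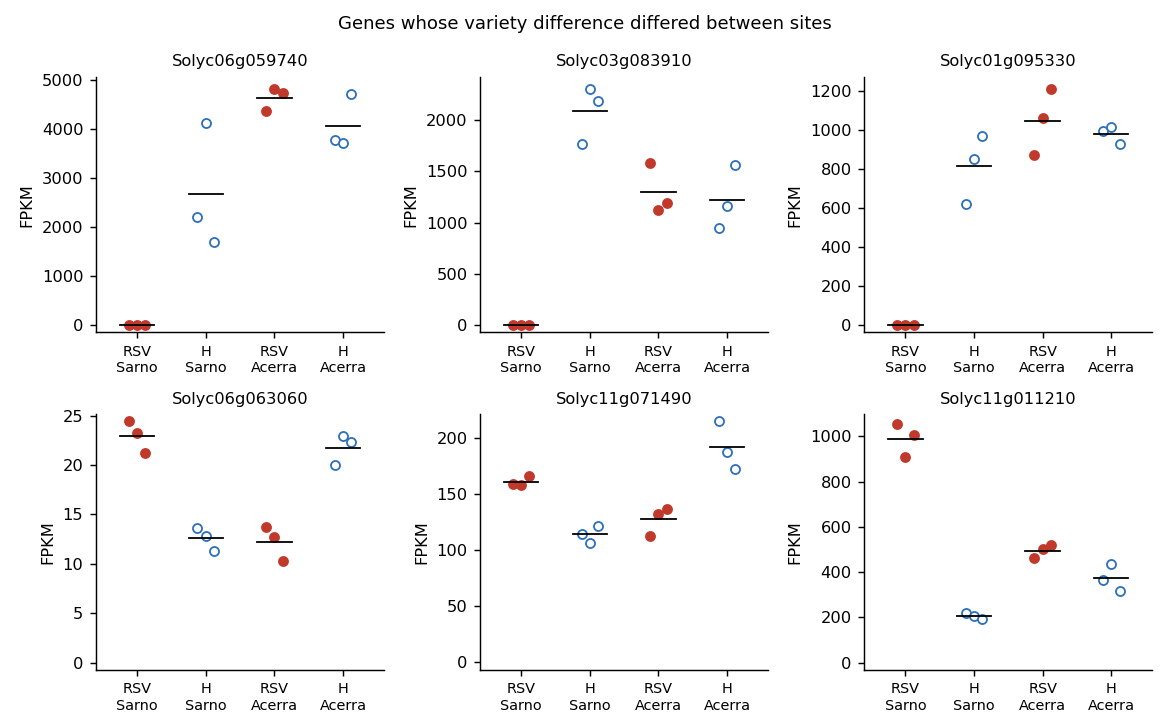
FPKM in each library of 6 genes whose variety difference differed between the sites, in RSV (red) and H (open blue) at Sarno and then at Acerra, with the mean of each group as a bar. The 3 genes of the upper row were listed at 0 in all RSV libraries of Sarno only, and in the lower row Solyc06g063060 and Solyc11g071490 changed their order between the sites.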

How the data were processed

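RNA-seq libraries of red ripe fruit (TruSeq RNA v2, 100-base paired reads) were compared, 3 of RSV and 3 of H from Sarno. Per the submitters' processing notes, CASAVA 1.8.2, TopHat2 2.0.6 and Cufflinks 2.1.1 were used. The authors aligned H to the reference genome SL2.40 and RSV to its own assembly, quantified each variety in 1 annotation-guided run with a correction for reads of multiple origin, and deposited FPKM per locus, written with a decimal comma. The scaling between libraries is not given in the sources used here. The study's supplement lists fragments and mapped shares per library, which were not used here. From low FPKM values the relative depths were 0.841 and 0.777 for RSV replicates 1 and 3 against RSV replicate 2, and 1.47 and 1.06 for H replicates 1 and 3 against H replicate 2. The tables list 35627 RSV and 35566 H loci, of which 2195 and 2261 carry no identifier and 1577 and 1359 carry several, and these were left out.

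Loci were matched by a single identifier listed once in each table (30169 genes), kept at a mean of at least 0.5 FPKM, and tested on log2(FPKM + 0.5) with limma 3.58.1 in R 4.3.3 (linear model, empirical Bayes with a trend, Benjamini-Hochberg adjustment, two-sided, threshold 0.05) on the 6 Sarno libraries. The same model was fitted at Acerra, and a variety by site interaction over both sites. The fit was tested on simulated data. Named were the 10 largest differences in each direction among called genes that averaged 1 FPKM or more, without overlap and with a value above 0 in at least 1 library of each variety, the 5 genes with the highest mean in each variety among those at 0 in the other, the 5 most abundant past the threshold in each direction, and genes of lists taken from the study's descriptions. Members and lists were chosen with earlier results of these data known. Alternatives were pseudocounts of 0.1 and 1, other filters, rescaling by median ratio, quantile normalization, other empirical Bayes settings, a replicate block, a minimum difference of 1 log2 unit, all 18 libraries in one fit, loci of similar length, and the omission of each library. Sequences of genes, other than primers, were not used here. Coordinates are those of the H table, as listed.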

Additional observations from a re-analysis of the deposited data

Results flagged for a closer look

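The difference between RSV and H differed between Sarno and Acerra in 15 genes, by limma's test of the interaction (RSV minus H at Sarno, less the same at Acerra, in log2 units). In 3 genes RSV was listed at 0 at Sarno only, while H was above 0 at both sites. These zeros may be failed estimates of the quantification, so that the interactions are not established as differences in expression. They were Solyc06g059740 (-12.5, adjusted p = 1.11e-08), Solyc03g083910 (-12.1, 7.75e-10) and Solyc01g095330 (-10.7, 7.75e-10). All 3 were also listed at 0 in SM at Sarno, and their high level in H at Sarno and in both varieties at Acerra stands in the data above.

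Solyc04g071610 (-15.4, limma adjusted p = 3.33e-14) was listed at 0 in RSV and in H at Sarno, and at Acerra at 20954, 20354 and 21772 FPKM in RSV, against 0 in all 3 libraries of H. Its zeros may be failed estimates too, so that this interaction is not established as a difference in expression. Solyc07g062690 (-3.17, 0.00213) had 6.33, 3.57 and 3.44 FPKM in RSV at Acerra, against 0 in H, and at most 0.105 FPKM in any Sarno library. Solyc12g044680 (4.04, 0.00872) had 12.6, 13.2 and 6.80 FPKM in RSV at Sarno, against 0 in H, and at most 0.757 FPKM in any library of either variety at Acerra. Solyc10g018820 (-3.53, 0.00213) had 0, 0.124 and 0 FPKM in RSV at Sarno, against 3.13, 4.602 and 4.35 FPKM in H, and at most 0.416 FPKM in any library at Acerra. The values of Solyc07g062690 and Solyc10g018820 are low and may rest on few fragments, which were not counted here. Their interactions are thus uncertain.

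Solyc10g009120 (2.2, limma adjusted p = 0.0256) was listed at 0 in RSV at both sites, while H had 12.9, 21.5 and 22.8 FPKM at Sarno and 70.9, 112 and 82.0 FPKM at Acerra. Its interaction is thus set by the level of H alone. Solyc02g021260 (-1.85, 0.0356) was higher in RSV at both sites, with 3.39, 4.06 and 5.50 FPKM in RSV at Sarno, against at most 0.0157 FPKM in H, and 16.1, 15.7 and 22.7 FPKM in RSV at Acerra, against at most 0.0988 FPKM in H. The matrix metalloproteinase Solyc05g006360 (-1.67, 0.0301) and Solyc11g011210 (1.84, 0.00213) were also higher in RSV at both sites. In Solyc02g021260 and Solyc05g006360, every H library at both sites was below the 0.5 FPKM added before the logarithm. The interactions of these genes are thus set largely by the level of RSV. They do not show that the ratio between the varieties differed between the sites. Solyc11g011210 was higher in RSV by 2.26 log2 units at Sarno and by 0.41 at Acerra.

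The varieties changed their order between the sites in Solyc02g014510 (-3.72, limma adjusted p = 0.00213), Solyc10g044460 (-3.14, 0.00213), Solyc06g063060 (1.66, 0.00213) and Solyc11g071490 (1.08, 0.0326).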

How the results depend on the processing

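The count of 1288 genes past the threshold at Sarno was 486 with a replicate block, 3562 with all 18 libraries in one fit and 2409 with RSV replicate 3 and H replicate 1 left out, an alternative chosen after the data were seen. Omission of 1 library gave 355 to 1678. Every other alternative gave 865 to 1292. At Acerra the 3866 genes were 2364 with a replicate block and 1151 with a minimum difference of 1 log2 unit, and 2385 to 3929 under omission of 1 library. The 15 genes of the interaction were 49 with no filter on low values, 23 without a trend and 39 with all 18 libraries, and 12 to 137 under omission of 1 library. The causes were not tested, except that the minimum difference and the omissions by construction admit fewer genes or fewer libraries.

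The sources used here do not say if libraries of the same replicate number belong together. Deviations from the group means correlated at 0.155, -0.148 and 0.0243 between RSV and H libraries of the same number. Between libraries of unlike number the correlations were -0.159 to 0.189. With 3 libraries per group, of which RSV replicate 3 and H replicate 1 stand apart, these values cannot exclude a pairing. If the libraries are paired, the count of 486 with the block applies. Of 50 named genes that passed, followed over 992 combinations of gene and alternative, 887 kept direction and call, 105 kept direction without passing and 0 were reversed, and 32 genes kept their call throughout. FPKM without reads behind them limit what can be said of low genes.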
